A study of Mus musculus with 12 samples.

Results

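Transcripts of the bone morphogenetic protein (BMP) pathway were followed in sorted mouse mammary epithelial cells with and without Wnt4. The 10 genes are the ligand genes Bmp2, Bmp4 and Bmp7, the receptor genes Bmpr1a, Bmpr1b and Bmpr2, the target genes Id1, Id2 and Id3, and Smad6, which is both a target and an inhibitor of the pathway. They were listed by name for their place in the pathway, with earlier results of these data known. All 10 were measured, each by 1 probeset, among 19938 genes with a named probeset on the array.

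BMP ligands are secreted dimers that bring type I and type II serine/threonine kinase receptors together on the cell surface. The type II receptor activates the type I receptor, which phosphorylates Smad1, Smad5 and Smad9, and these enter the nucleus with Smad4. Id genes are among their direct targets. Id proteins have a helix-loop-helix domain but no DNA-binding region, so they tie up the basic helix-loop-helix factors they pair with. In the embryonic mammary bud, Bmp4 is made in the mesenchyme and signals through Bmpr1a, and Id2 is needed for alveolar growth in pregnancy. BMP signaling is also active in the endothelium of blood vessels, where Id1, Id3 and Smad6 are expressed.

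The 12 arrays fell into 4 groups of 3. Cells came from females of 10 to 14 weeks on a C57BL/6JOlaHsd background, either MMTV::Cre+.Wnt4fl/fl.mT/mG, called Wnt4-deleted here, or MMTV::Cre+.Wnt4wt/wt.mT/mG, called WT. Both genotypes carried the same Cre transgene, which the MMTV promoter drives in mammary epithelium, and the same mT/mG reporter, which switches to green fluorescence in cells where Cre has acted. Lineage-depleted, green cells were sorted by CD24 into a CD24 high fraction, labelled luminal, and a CD24 low fraction, labelled myoepithelial. The groups were thus Wnt4-deleted CD24 high, WT CD24 high, Wnt4-deleted CD24 low and WT CD24 low. Sample titles carry numbers that run in sets, 1 to 4, 9 to 12 and 13 to 16, each with 1 array of every group, and arrays are named by these numbers below. Whether the cells came from intact glands or from grafts is not settled by the labels, and no label ties an array to an animal or to 1 of the 3 independent experiments that the design text names, so p-values measure the spread between arrays. Values are log2 signals. A difference of 1 is a doubling, and levels of different probesets cannot be ranked against each other.

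Wnt4 read 6.11 to 6.78 in Wnt4-deleted CD24 high arrays, against 7.42 to 7.92 in WT CD24 high arrays, a change of -1.20 that did not pass the threshold over all genes (limma, adjusted p = 0.416). In CD24 low arrays Wnt4 read 6.20 to 6.66 with the deletion and 6.45 to 6.63 in WT. Which part of Wnt4 its probeset covers is not given in the sources used here. The fractions carried the markers of their labels: the mean of 8 general luminal markers was 11.1 to 11.5 in CD24 high arrays and 8.51 to 9.31 in CD24 low arrays, and the mean of 10 myoepithelial markers was 6.17 to 7.10 and 10.7 to 11.2 (exact permutation test, two-sided, p = 0.0022 for each, the smallest that 6 against 6 arrays allow). The transcript of the sort marker, Cd24a, differed less, by 0.57 in Wnt4-deleted (limma, adjusted p = 0.0329) and 0.49 in WT cells (adjusted p = 0.0600). It read 11.1 to 11.5 in WT CD24 low and 11.8 to 11.9 in WT CD24 high arrays. Markers of other cells were present in CD24 low arrays too. The mean of 10 endothelial markers, all measured, was 4.91 to 6.22 in CD24 high arrays and 6.34 to 9.12 in CD24 low arrays (exact permutation p = 0.0022). In WT cells 5 of the 10 passed an adjusted p of 0.05 between fractions (limma), all lower in CD24 high cells, beside 16.1% of all genes. No detection call came with the values, so it is not known which readings exceeded background. Within the CD24 low fraction the endothelial mean was 6.34, 9.12 and 8.87 in Wnt4-deleted arrays 3, 11 and 15 and 6.49, 7.94 and 8.74 in WT arrays 1, 9 and 13. Skeletal muscle markers averaged 9.05 and 8.03 in arrays 3 and 1 and at most 6.01 elsewhere, and fibroblast markers averaged 8.50 and 9.05 in arrays 11 and 9 and at most 6.89 elsewhere. Since these are bulk samples, fewer cells of a type and less RNA per cell cannot be told apart.

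Promoter sequence was read from RefSeq (GRCm38.p6) as 250 bases before and 50 bases after each start, and 7 of the 10 genes had an entry there, the exceptions being Bmp2, Bmp7 and Id1. The 4 sequences below belong to the genes with an entry whose level differed between the fractions in both genotypes, 3 of them lower in CD24 high cells and Bmpr1b higher. Capitals mark the letters GTCTAGAC, a palindromic Smad element, and GGCGCC, a GC-rich element of BMP-activated Smads. Both read the same on the 2 strands and they do not overlap. Smad6 lies on the minus strand at chr9:64022010-64022309, Id2 on the minus strand at chr12:25096043-25096342, Bmpr2 on the plus strand at chr1:59764029-59764328, and Bmpr1b, shown at the most upstream of its 3 listed starts, on the minus strand at chr3:141982215-141982514.
Smad6: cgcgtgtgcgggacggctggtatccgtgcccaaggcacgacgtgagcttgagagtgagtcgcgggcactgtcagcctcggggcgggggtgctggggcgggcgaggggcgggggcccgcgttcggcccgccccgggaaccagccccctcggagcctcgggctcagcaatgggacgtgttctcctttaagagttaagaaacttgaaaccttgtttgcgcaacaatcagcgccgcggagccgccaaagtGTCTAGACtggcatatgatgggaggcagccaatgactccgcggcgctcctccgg
Id2: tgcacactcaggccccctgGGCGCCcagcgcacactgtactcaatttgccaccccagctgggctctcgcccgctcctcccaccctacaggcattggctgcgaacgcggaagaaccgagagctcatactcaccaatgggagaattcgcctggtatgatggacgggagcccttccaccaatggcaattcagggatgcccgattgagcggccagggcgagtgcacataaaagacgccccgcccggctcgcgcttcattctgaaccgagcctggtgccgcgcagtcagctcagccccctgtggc
Bmpr2: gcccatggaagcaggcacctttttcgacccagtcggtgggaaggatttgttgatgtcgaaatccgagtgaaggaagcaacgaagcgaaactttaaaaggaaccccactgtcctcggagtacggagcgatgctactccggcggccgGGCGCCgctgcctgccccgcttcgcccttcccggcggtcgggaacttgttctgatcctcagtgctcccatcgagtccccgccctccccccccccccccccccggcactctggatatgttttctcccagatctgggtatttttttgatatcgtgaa
Bmpr1b: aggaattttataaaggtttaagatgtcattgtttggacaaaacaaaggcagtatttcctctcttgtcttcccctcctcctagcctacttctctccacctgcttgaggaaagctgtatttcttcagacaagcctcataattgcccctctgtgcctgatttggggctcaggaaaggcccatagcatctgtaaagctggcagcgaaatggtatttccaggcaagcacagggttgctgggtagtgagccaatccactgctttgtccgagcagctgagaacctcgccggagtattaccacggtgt
In the Smad6 window GTCTAGAC began 4 bases before the start and ran across it. The same letters occurred in 0.213% of 32851 promoters of the same length. GGCGCC stood in the windows of Id2, Bmpr2 and Bmpr1a and in 11.9% of all promoters. The Bmp4 and Id3 windows and the 3 Bmpr1b windows held neither. The TCF/LEF core CTTTGAT, searched on both strands, was in none of the 9 windows of these genes and in 3.73% of all promoters, while the E-box CAGCTG was in the Id2 window, in 2 of 3 Bmpr1b windows and in 16.3% of all promoters. A match describes letters, not binding.

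The comparison of fractions asks which parts of the pathway differ between the CD24 high and the CD24 low cells of one genotype. Most of the 10 genes read lower in CD24 high cells, and Bmpr1b alone passed the test with a higher level. In Wnt4-deleted cells 7 of the 10 passed an adjusted p of 0.05 (limma, adjusted over all 19938 genes), 1 higher and 6 lower, against 16.4% of all genes (8.23% higher, 8.22% lower). In WT cells 5 of the 10 passed, 1 higher and 4 lower, against 16.1% of all genes (7.93% higher, 8.21% lower). The 5 that passed in both genotypes, beside 2465 of all 19938 genes, were Bmp7, Bmpr1b, Bmpr2, Id2 and Smad6. Bmp2 and Id1 passed in Wnt4-deleted cells. The median change of the 10 genes was -1.05 in Wnt4-deleted and -0.83 in WT cells, beside 0.01 and 0.02 over all genes. In each genotype 7 of the 10 had no overlap between the fractions, against 29.3% of all genes in Wnt4-deleted and 32.8% in WT cells.

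**Figure D1:**
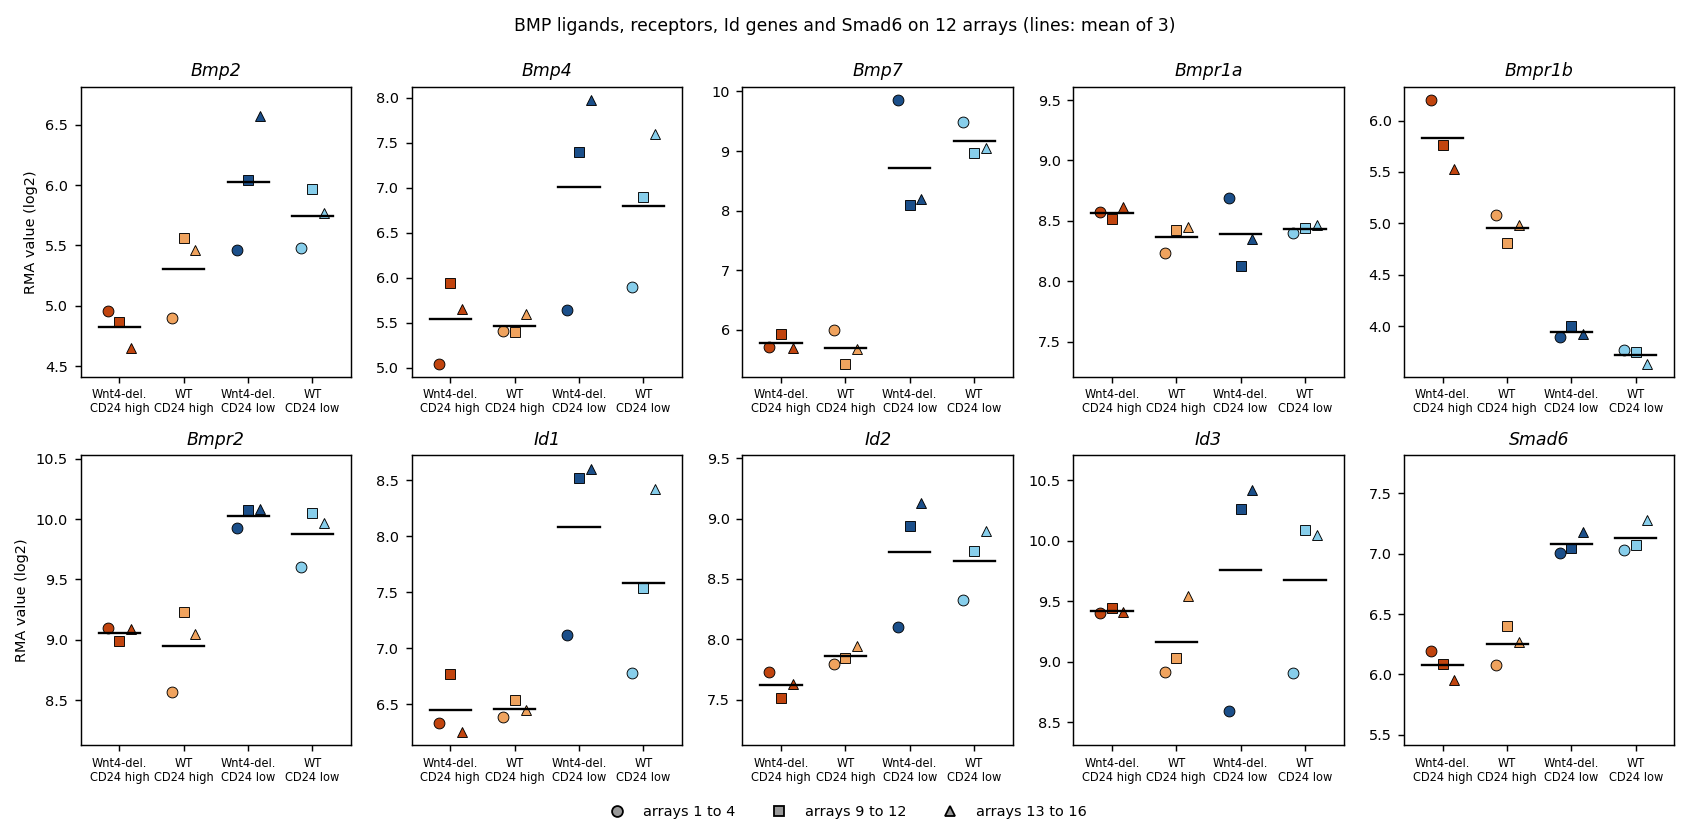
Log2 signal of each of the 10 genes on the 12 arrays, by group from left to right Wnt4-deleted CD24 high, WT CD24 high, Wnt4-deleted CD24 low and WT CD24 low; point shape gives the set of title numbers, lines are means of 3, and each panel has its own axis. Bmp7 lies between 5.43 and 5.995 on all CD24 high arrays and between 8.09 and 9.85 on all CD24 low arrays, and the circles of Bmp4, Id1 and Id3 are the lowest CD24 low points.

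Among the ligands Bmp7 differed most between the fractions. Bmp7 (chr2:172868012-172940321) encodes a ligand of the same family branch as Bmp5 and Bmp6. It read 5.72, 5.94 and 5.69 in Wnt4-deleted CD24 high arrays 4, 12 and 16, against 9.85, 8.09 and 8.19 in Wnt4-deleted CD24 low arrays 3, 11 and 15. In WT it read 5.995, 5.43 and 5.68 in CD24 high arrays 2, 10 and 14, against 9.48, 8.96 and 9.05 in CD24 low arrays 1, 9 and 13. All CD24 high arrays were low, all CD24 low arrays were high, and the closest values of the fractions were more than a doubling apart. Bmp7 was 7.61-fold lower in CD24 high than in CD24 low Wnt4-deleted cells (log2 change -2.93, SE 0.38, adjusted p = 0.000334) and 11.04-fold lower in WT (-3.46, SE 0.38, adjusted p = 0.000102; limma).

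Bmp4 (chr14:46383525-46390669), the ligand of the mammary mesenchyme, spread widely in the CD24 low fraction. Its values were 5.05, 5.94 and 5.65 in Wnt4-deleted CD24 high arrays 4, 12 and 16, against 5.64, 7.40 and 7.97 in CD24 low arrays 3, 11 and 15. WT values were 5.41, 5.39 and 5.60 in CD24 high arrays 2, 10 and 14, against 5.89, 6.90 and 7.60 in CD24 low arrays 1, 9 and 13. Arrays 3 and 1 were close to the CD24 high level and the other CD24 low arrays were well above it. The groups overlapped in Wnt4-deleted cells but not in WT. The change was -1.46 (SE 0.55, adjusted p = 0.102) in Wnt4-deleted and -1.33 (SE 0.55, adjusted p = 0.144) in WT cells, neither past the threshold. Without array 3 both passed (adjusted p = 0.00590 and 0.0347), and both passed with the set of title numbers as a replicate block (adjusted p = 0.0185 and 0.0285).

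Bmp2 (chr2:133552159-133562896), a close relative of Bmp4, read 4.96, 4.86 and 4.65 in Wnt4-deleted CD24 high arrays 4, 12 and 16, against 5.47, 6.04 and 6.58 in CD24 low arrays 3, 11 and 15. In WT the values were 4.90, 5.56 and 5.47 in CD24 high arrays 2, 10 and 14, against 5.48, 5.97 and 5.77 in CD24 low arrays 1, 9 and 13. The Wnt4-deleted groups stood apart and the WT groups overlapped. Bmp2 was 2.30-fold lower in CD24 high Wnt4-deleted cells (-1.20, SE 0.27, adjusted p = 0.00934), with a WT change of -0.43 (SE 0.27, adjusted p = 0.360). The difference between these changes was 0.77 (SE 0.38) and did not pass (adjusted p = 0.9999), so a difference between the genotypes was not shown. The Wnt4-deleted call was lost without title numbers 9 to 12 or 13 to 16 (limma, adjusted p = 0.128 and 0.192), where fewer of all genes passed too. Within the sets 1 to 4, 9 to 12 and 13 to 16, Bmp2 differed by -0.50, -1.18 and -1.93 in Wnt4-deleted cells. In WT cells it differed by -0.58, -0.41 and -0.30.

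The 3 receptor genes each had a pattern of their own. Bmpr1b (chr3:141837135-142169585), a type I receptor, read 6.20, 5.76 and 5.53 in Wnt4-deleted CD24 high arrays 4, 12 and 16, against 3.90, 4.002 and 3.92 in CD24 low arrays 3, 11 and 15. It read 5.09, 4.81 and 4.98 in WT CD24 high arrays 2, 10 and 14, against 3.77, 3.75 and 3.63 in CD24 low arrays 1, 9 and 13. The CD24 high arrays were all above the CD24 low arrays, and no detection call came with the values, so it is not known whether the CD24 low signal exceeded background. Bmpr1b was 3.71-fold higher in CD24 high Wnt4-deleted cells (1.89, SE 0.16, adjusted p = 1.27e-05) and 2.36-fold higher in CD24 high WT cells (1.24, SE 0.16, adjusted p = 0.000272).

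Bmpr2 (chr1:59764279-59878081), the type II receptor, ran the other way. Its levels were 9.10, 8.99 and 9.09 in Wnt4-deleted CD24 high arrays 4, 12 and 16, against 9.92, 10.07 and 10.09 in CD24 low arrays 3, 11 and 15, and 8.57, 9.23 and 9.05 in WT CD24 high arrays 2, 10 and 14, against 9.60, 10.05 and 9.97 in CD24 low arrays 1, 9 and 13. The fractions did not overlap. It was 1.96-fold lower in CD24 high Wnt4-deleted cells (-0.97, SE 0.17, adjusted p = 0.00266) and 1.90-fold lower in CD24 high WT cells (-0.93, SE 0.17, adjusted p = 0.00361). The Wnt4-deleted call was lost without title numbers 9 to 12 or 13 to 16 (limma, adjusted p = 0.0544 and 0.0909). The WT call was lost without 13 to 16 (adjusted p = 0.0980). Fewer of all genes passed in these fits too.

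Bmpr1a (chr14:34411061-34503336), the type I receptor through which Bmp4 signals in the bud, stayed within a narrow band. It read 8.58, 8.51 and 8.62 in Wnt4-deleted CD24 high arrays 4, 12 and 16, against 8.69, 8.13 and 8.35 in CD24 low arrays 3, 11 and 15, and 8.23, 8.42 and 8.45 in WT CD24 high arrays 2, 10 and 14, against 8.40, 8.44 and 8.46 in CD24 low arrays 1, 9 and 13. The fractions overlapped in both genotypes. The change was 0.18 (95% interval -0.13 to 0.49, adjusted p = 0.469) in Wnt4-deleted and -0.07 (95% interval -0.37 to 0.24, adjusted p = 0.844) in WT cells.

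Of the targets, Smad6 differed with the least spread. Smad6 (chr9:63953076-64022085) encodes an inhibitory Smad that BMP signals induce and that in turn holds the pathway back. It read 6.19, 6.09 and 5.95 in Wnt4-deleted CD24 high arrays 4, 12 and 16, against 7.01, 7.05 and 7.18 in CD24 low arrays 3, 11 and 15. WT values were 6.08, 6.41 and 6.27 in CD24 high arrays 2, 10 and 14, against 7.03, 7.07 and 7.28 in CD24 low arrays 1, 9 and 13. All 6 CD24 low arrays lay above all 6 CD24 high arrays. The level was 1.9999-fold lower in CD24 high Wnt4-deleted cells (-0.9999, SE 0.12, adjusted p = 0.000229) and 1.83-fold lower in CD24 high WT cells (-0.87, SE 0.12, adjusted p = 0.000584).

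Id2 (chr12:25093799-25096092) read 7.73, 7.51 and 7.63 in Wnt4-deleted CD24 high arrays 4, 12 and 16, against 8.10, 8.94 and 9.13 in CD24 low arrays 3, 11 and 15. In WT it read 7.80, 7.85 and 7.95 in CD24 high arrays 2, 10 and 14, against 8.33, 8.73 and 8.90 in CD24 low arrays 1, 9 and 13. The fractions did not overlap, although arrays 3 and 1 were again the lowest CD24 low arrays. Id2 was 2.14-fold lower in CD24 high Wnt4-deleted cells (-1.10, SE 0.24, adjusted p = 0.00814) and 1.73-fold lower in CD24 high WT cells (-0.79, SE 0.24, adjusted p = 0.0438). Both calls were lost without title numbers 9 to 12 (limma, adjusted p = 0.195 in Wnt4-deleted and 0.318 in WT cells). The same held without 13 to 16 (adjusted p = 0.145 and 0.255), and fewer of all genes passed in these fits too. The WT call was near the threshold: it was lost with each array centered on its median (adjusted p = 0.0544), with a second quantile normalization (adjusted p = 0.0713), and without any 1 of arrays 2, 4, 9, 10, 12, 13, 14 and 16 (adjusted p between 0.0552 and 0.160).

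Id1 (chr2:152736251-152737410) read 6.33, 6.77 and 6.25 in Wnt4-deleted CD24 high arrays 4, 12 and 16, against 7.12, 8.52 and 8.60 in CD24 low arrays 3, 11 and 15. WT values were 6.38, 6.54 and 6.45 in CD24 high arrays 2, 10 and 14, against 6.78, 7.54 and 8.43 in CD24 low arrays 1, 9 and 13. No CD24 high array reached a CD24 low array of its genotype. Id1 was 3.09-fold lower in CD24 high Wnt4-deleted cells (-1.63, SE 0.43, adjusted p = 0.0233), while the WT change of -1.13 (SE 0.43) did not pass (adjusted p = 0.109). The Wnt4-deleted call was lost without any 1 of arrays 4, 11, 15 and 16 (adjusted p between 0.0683 and 0.0867) and with only the compared groups in the fit (adjusted p = 0.0517), and the WT change passed without array 1 or array 3 (adjusted p = 0.0371 and 0.0383) and with the set of title numbers as a replicate block (adjusted p = 0.0435).

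Id3 (chr4:136143822-136145392), which overlaps with Id1 in function, did not pass in either genotype. It read 9.40, 9.44 and 9.41 in Wnt4-deleted CD24 high arrays 4, 12 and 16, against 8.59, 10.26 and 10.42 in CD24 low arrays 3, 11 and 15. In WT it read 8.92, 9.03 and 9.55 in CD24 high arrays 2, 10 and 14, against 8.90, 10.09 and 10.05 in CD24 low arrays 1, 9 and 13. Arrays 3 and 1 were below every CD24 high array and the other CD24 low arrays above them all. The changes were -0.34 (SE 0.45, adjusted p = 0.706) in Wnt4-deleted and -0.51 (SE 0.45, adjusted p = 0.556) in WT cells.

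**Figure D2:**
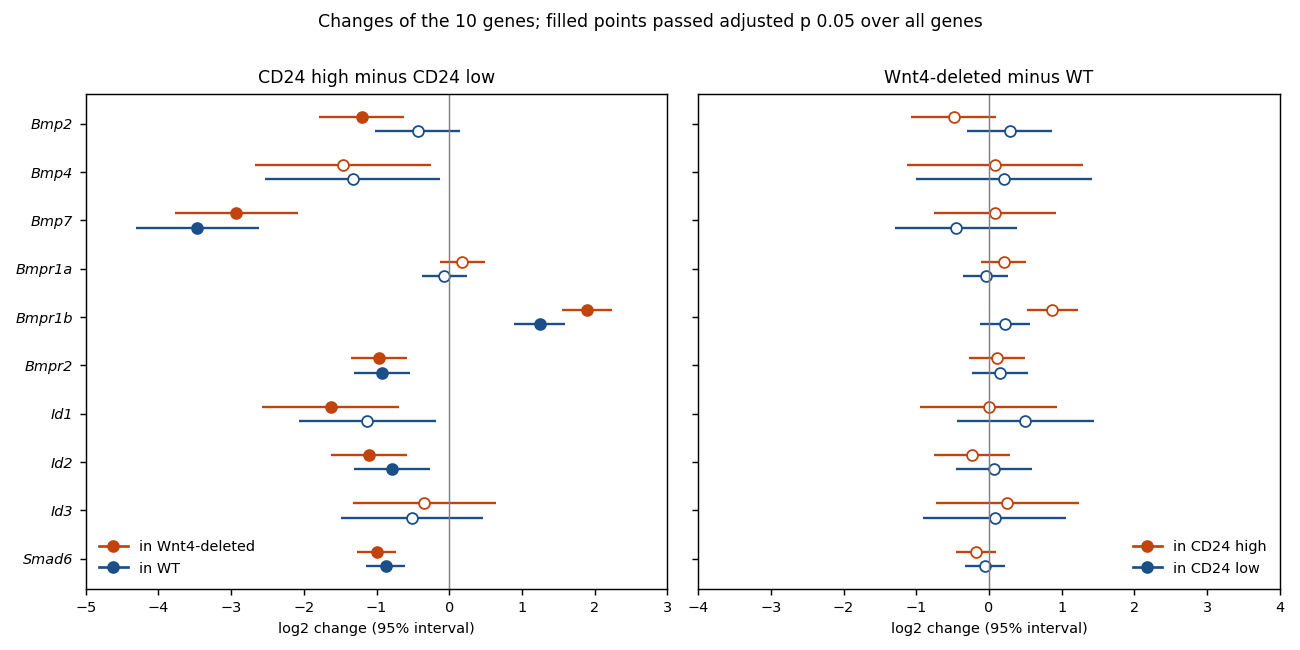
Log2 changes of the 10 genes with 95% intervals from limma, CD24 high minus CD24 low on the left (orange in Wnt4-deleted, blue in WT) and Wnt4-deleted minus WT on the right (orange in CD24 high, blue in CD24 low); filled points passed an adjusted p of 0.05 over all genes. Of the 10 genes 7 are filled in Wnt4-deleted and 5 in WT cells on the left, and none on the right.

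Differences taken within each set of title numbers showed how evenly each gene moved. In sets 1 to 4, 9 to 12 and 13 to 16, CD24 high minus CD24 low for Smad6 was -0.81, -0.96 and -1.23 in Wnt4-deleted and -0.95, -0.67 and -1.01 in WT cells. For Bmpr2 it was -0.83, -1.08 and -0.9998 in Wnt4-deleted and -1.03, -0.82 and -0.92 in WT cells, and for Bmpr1b 2.30, 1.76 and 1.61 in Wnt4-deleted and 1.32, 1.06 and 1.35 in WT cells. Bmp7 gave -4.14, -2.16 and -2.49 in Wnt4-deleted and -3.49, -3.53 and -3.37 in WT cells. The fractions did not overlap for any of these genes, so their sign was bound to be the same in every set. For Bmp4 the differences were -0.59, -1.46 and -2.32 in Wnt4-deleted and -0.48, -1.51 and -1.999 in WT cells, and for Id1 -0.79, -1.74 and -2.35 in Wnt4-deleted and -0.39, -1.01 and -1.98 in WT cells. Id3 gave 0.81, -0.82 and -1.01 in Wnt4-deleted and 0.01, -1.05 and -0.50 in WT cells, with no fall in the set 1 to 4, and Id2 gave -0.37, -1.43 and -1.50 in Wnt4-deleted and -0.53, -0.89 and -0.95 in WT cells. In the set 1 to 4 these 4 genes thus differed least or ran the other way. The endothelial marker mean differed by -1.43, -2.89 and -3.71 in the same sets of Wnt4-deleted cells and by -1.38, -2.03 and -3.47 in WT cells, so it too differed least in the set 1 to 4. So did the fibroblast mean (-0.69, -2.65 and -1.25 in Wnt4-deleted, -0.41, -2.88 and -0.56 in WT cells). The immune mean (-0.42, -1.27 and -1.33, then -0.38, -1.55 and -0.80) and the general luminal and myoepithelial means did as well. The skeletal muscle mean differed most there (-3.41 and -2.38). The remaining marker lists did not differ least there in both genotypes. The part of any list in the fraction differences of Bmp4, Id1, Id2 and Id3 was not tested. As a covariate the endothelial mean was fitted only between genotypes.

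**Figure D3:**
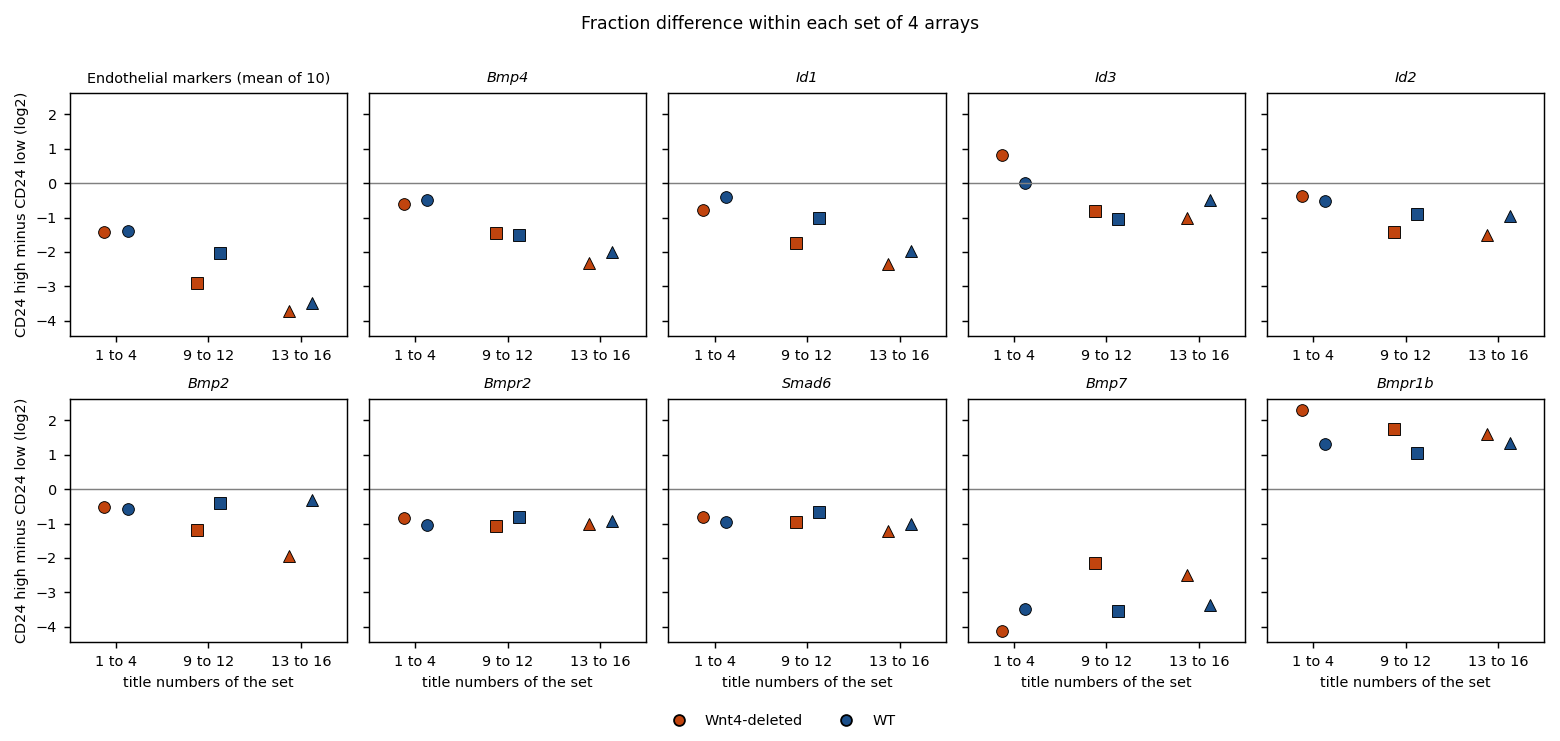
CD24 high minus CD24 low (log2) within each set of title numbers, 1 to 4, 9 to 12 and 13 to 16, for the mean of 10 endothelial markers and for 9 of the genes; orange is Wnt4-deleted and blue is WT. Bmpr2 and Smad6 stay between -0.67 and -1.23, whereas Bmp4 and Id1 run from between -0.39 and -0.79 in the set 1 to 4 to between -1.98 and -2.35 in the set 13 to 16.

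Counts of the 10 genes depended on the CD24 low arrays that were kept. Without CD24 low arrays 1 and 3, which had the lowest endothelial and the highest muscle marker means, 9 of the 10 genes passed in Wnt4-deleted and 8 in WT cells, beside 17.9% and 15.2% of all genes in the same fits. Bmp4 (-2.14 and -1.78), Id1 (-2.11 and -1.53) and Id3 (-0.92 and -0.90) then passed in Wnt4-deleted and in WT cells. With only arrays 1 and 3 kept in the CD24 low fraction, 1 per genotype, 3 passed in Wnt4-deleted cells, namely Bmp7, Bmpr1b and Smad6, and 2 in WT cells, Bmp7 and Bmpr1b. The share of all genes that passed was lower in that fit too, at 8.33% in Wnt4-deleted and 8.14% in WT cells, against 16.4% and 16.1% with all arrays. There the lone CD24 low array is assumed to vary like the other groups. Bmp4 was then at -0.09 and -0.43 and Id3 at 0.82 and 0.26, in Wnt4-deleted and in WT cells, while Bmp7 was at -4.07 and -3.78. Both choices were made after seeing the data.

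The comparison of genotypes asks whether the pathway's transcripts differ once Wnt4 is deleted. In CD24 high cells none of the 10 genes passed, against 0.00502% of all genes, which is 1 gene; at an unadjusted p of 0.05 (limma) it was 1 of the 10 and 396 of all genes. The CD24 low cells gave none of the 10 as well, against 0.00502% or 1 gene, and at the unadjusted p it was 0 of the 10 and 610 of all genes. The 95% intervals of the 10 changes reached from -1.13 to 1.29 in CD24 high and from -1.30 to 1.44 in CD24 low cells, the widest being those of Bmp4 and the narrowest those of Bmpr1a and Smad6. The median change of the 10 was 0.08 in CD24 high and 0.12 in CD24 low cells, beside -0.03 and -0.02 over all genes.

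Bmpr1b was the member with an unadjusted p under 0.05. In CD24 high cells its Wnt4-deleted values of 6.20, 5.76 and 5.53 were all above the WT values of 5.09, 4.81 and 4.98, a 1.83-fold higher level (0.87, SE 0.16, unadjusted p = 0.000173). The adjusted p of limma was 0.690, and it ranged between 0.169 and just under 1 over the alternatives, so the change failed the correction under all of those run. Under the filter on low values Bmpr1b was left out. In CD24 low cells the Wnt4-deleted values of 3.90, 4.002 and 3.92 were above the WT values of 3.77, 3.75 and 3.63 by 0.22 (SE 0.16, adjusted p = 0.9998). The CD24 low effect minus the CD24 high effect was -0.65 (SE 0.22, unadjusted p = 0.0139, adjusted p = 0.9999). Within the sets 1 to 4, 9 to 12 and 13 to 16 the CD24 high difference was 1.11, 0.95 and 0.55. Its sign follows from the lack of overlap and adds no separate evidence.

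Groups that did not overlap between genotypes were 3 of the 10 in CD24 high cells, against 7.00% of all genes, and 1 of the 10, Bmpr1b, in CD24 low cells, against 6.77%. Beside Bmpr1b, the CD24 high genes were Bmpr1a, at 8.51 to 8.62 in Wnt4-deleted and 8.23 to 8.45 in WT arrays (0.20, adjusted p = 0.99997), and Id2, at 7.51 to 7.73 in Wnt4-deleted and 7.80 to 7.95 in WT arrays (-0.24, adjusted p = 0.99997). Neither change passed. The remaining members overlapped in CD24 high cells, with Bmp2 at 4.65 to 4.96 in Wnt4-deleted and 4.90 to 5.56 in WT arrays (-0.48, SE 0.27) and Smad6 at 5.95 to 6.19 in Wnt4-deleted and 6.08 to 6.41 in WT arrays (-0.18, SE 0.12). Id1 and Id3 differed by -0.00 and 0.25. In CD24 low cells the changes of Id1 and Bmp7 were 0.50 (SE 0.43) and -0.45 (SE 0.38), within the spread of arrays. For the difference of the Wnt4 effects between fractions none of the 10 passed, against 0% of all genes, and at an unadjusted p of 0.05 it was 1 of the 10 and 273 of all genes.

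The wider pathway was read from a list of 50 further BMP genes, of which 49 were measured. That list too was made with earlier results of these data known. In Wnt4-deleted cells 19 of the 49 passed between the fractions, 4 higher and 15 lower in CD24 high cells, beside the 16.4% of all genes given above, and in WT cells 20 passed, 4 higher and 16 lower, beside 16.1%. They shared 18 genes, beside 2465 of all 19938 genes that passed in both genotypes. The median change of the list was -0.25 in Wnt4-deleted and -0.22 in WT cells.

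Of 16 secreted and membrane inhibitors 7 passed in each genotype, all lower in CD24 high cells. Fst, which encodes the activin and BMP binder follistatin, read 5.85 to 6.65 in Wnt4-deleted CD24 high and 10.07 to 10.98 in Wnt4-deleted CD24 low arrays, and 5.65 to 6.46 in WT CD24 high and 9.93 to 10.92 in WT CD24 low arrays. Its change was -4.33 in Wnt4-deleted and -4.44 in WT cells (adjusted p = 6.51e-06 and 5.3e-06). Its relative Fstl1 changed by -4.69 in Wnt4-deleted and -4.93 in WT cells, the Wnt and BMP antagonist Sostdc1 by -2.81 in Wnt4-deleted and -2.50 in WT cells, and the decoy receptor Bambi by -1.92 in Wnt4-deleted and -2.09 in WT cells, all past the threshold. The extracellular antagonists Nog, Chrd and Grem1 did not pass in either genotype.

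Targets were divided. Of 7 further targets 5 passed in each genotype, 2 higher and 3 lower. The homeobox genes Dlx5 (3.07 in Wnt4-deleted and 2.71 in WT cells) and Msx2 (2.45 and 2.30) were higher in CD24 high cells, whereas Id4, the fourth Id gene, was lower (-3.00 and -3.22). Msx2 read 8.0004 to 8.03 in Wnt4-deleted CD24 high and 5.40 to 5.65 in Wnt4-deleted CD24 low arrays, and 7.12 to 7.75 in WT CD24 high and 5.03 to 5.38 in WT CD24 low arrays. Id4 read 5.46 to 6.25 in Wnt4-deleted CD24 high and 8.40 to 9.15 in Wnt4-deleted CD24 low arrays, and 5.61 to 6.75 in WT CD24 high and 9.21 to 9.42 in WT CD24 low arrays. Neither gene overlapped between fractions, and Id4 ran in the direction of Id1 and Id2 while Msx2 ran with Bmpr1b.

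Of 11 further ligands 2 passed in Wnt4-deleted and 1 in WT cells. Bmp3, a ligand that opposes the others, was higher in CD24 high cells (1.54 in Wnt4-deleted and 1.13 in WT cells), and Bmp6 was lower in Wnt4-deleted cells. Of 8 further receptors and co-receptors 3 passed in each genotype, all lower: Acvr2a, Rgma and Rgmb. Of 7 Smads and Smad ligases 2 passed in Wnt4-deleted and 4 in WT cells, among them the ligase Smurf1, higher by 0.52 in Wnt4-deleted and 0.53 in WT cells, and the signal transducer Smad1, lower in both.

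**Figure D4:**
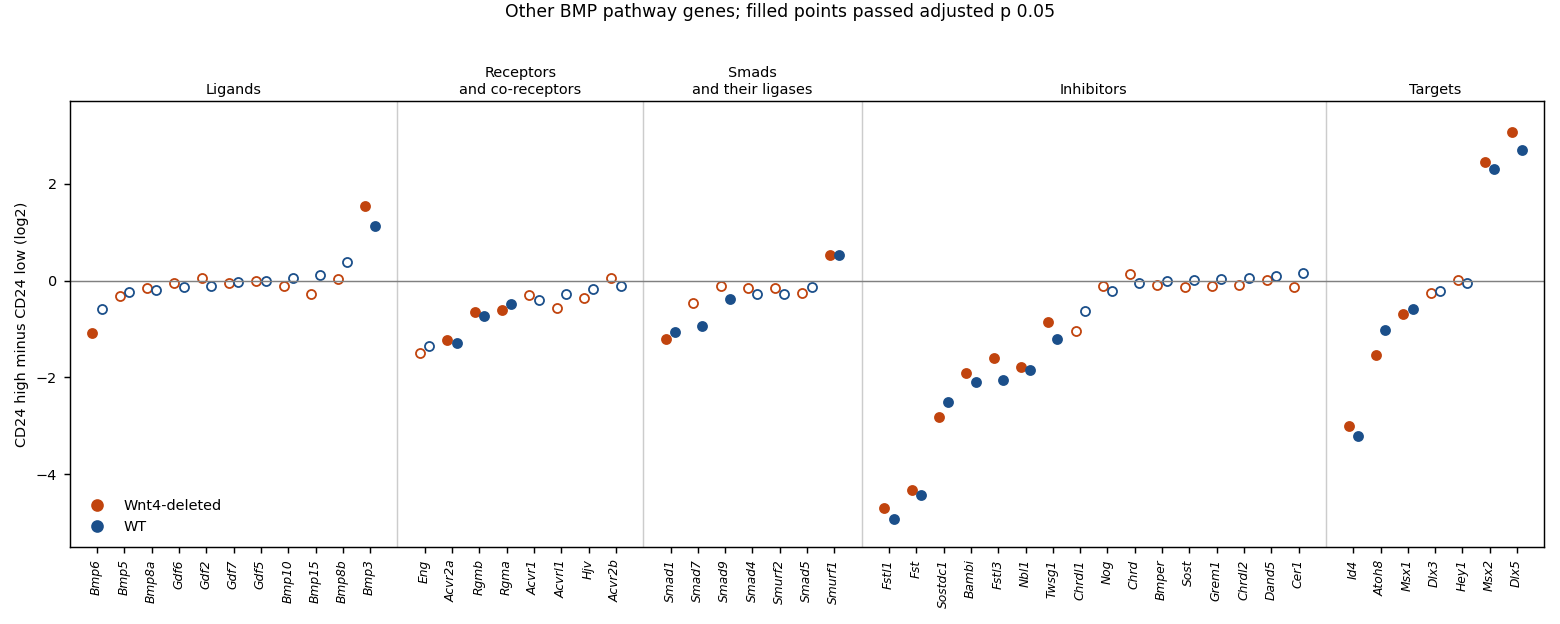
CD24 high minus CD24 low (log2) for the 49 further BMP pathway genes, grouped by role and ordered by size within a role; orange is Wnt4-deleted, blue is WT, and filled points passed an adjusted p of 0.05 over all genes. Fstl1 is lowest at -4.69 in Wnt4-deleted and -4.93 in WT cells and Dlx5 highest at 3.07 and 2.71.

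Between genotypes none of the 49 genes passed in either fraction, while 2 in CD24 high and 4 in CD24 low cells had an unadjusted p under 0.05. In CD24 high cells the smallest p among genes without overlap belonged to Atoh8, a helix-loop-helix target of BMP signals, at 4.85 to 5.27 in Wnt4-deleted and 5.41 to 5.74 in WT arrays (-0.59, SE 0.13, adjusted p = 0.99997). Msx2 at 8.0004 to 8.03 in Wnt4-deleted and 7.12 to 7.75 in WT arrays (0.50, SE 0.17, adjusted p = 0.99997) and the Wnt antagonist Sost (-0.31, SE 0.14, adjusted p = 0.99997) came next. In CD24 low cells they were the inhibitory Smad7, at 7.54 to 8.08 in Wnt4-deleted and 8.09 to 8.39 in WT arrays (-0.44, SE 0.18, adjusted p = 0.9998), the ligand Gdf6 (-0.36, SE 0.15, adjusted p = 0.9998) and the type II receptor Acvr2b (-0.26, SE 0.11, adjusted p = 0.9998).

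The genes whose values followed each member most closely over the 12 arrays were found by Pearson correlation, given as a description because the arrays share 2 fractions. Bmp4 was nearest to Egfl7 (r = 0.990), 1 of the 10 endothelial markers, and Gngt2 (0.986). Bmp7 was nearest to Zfp365 and Sdk2 (0.991 each), Id1 to Gbp4 (0.992) and Meox2 (0.987), Id2 to Itm2a (0.966) and Slco2b1 (0.965), and Smad6 to Eva1a (0.981) and Thsd7a (0.980). Bmpr2 lay nearest to the chemokine receptor gene Ackr3 (0.973) and Mxra8 (0.969), and Bmpr1b to Pgap1 (0.969) and the tight junction gene Cldn6 (0.965). The other members had lower values, with Map9 (0.948) and Gypc (0.931) nearest to Bmp2, Rab3a (0.947) and Gdap10 (0.931) to Id3, and Tmem176b (0.907) and Lrrc41 (0.879) to Bmpr1a.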

How the data were processed

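RNA of 12 sorted samples was amplified and hybridized to Affymetrix gene arrays. Per the labels the deposited values are log2 signals after RMA, made by the authors with Expression Console 1.1.2800; background and normalization settings beyond that are not given in the sources used here. Of 35556 probesets 21789 named 1 gene, 1621 named several and 12146 had no gene name in the annotation used; the probeset with the highest mean stood for each of 19938 genes, with no filter on low values; a filter at the 40th percentile, run as an alternative, would keep 9 of the 10 members, all but Bmpr1b. Array medians were 5.64 to 5.82. limma 3.58.1 (R 4.3.3) fitted 1 mean per group over the 12 arrays (8 residual degrees of freedom), with Benjamini-Hochberg adjustment over all genes, a threshold of 0.05 and two-sided tests. Marker lists were compared by exact permutation. The fit was tested on simulated data. Named genes were all members, up to 5 further BMP genes with the largest change each way between fractions, up to 3 without overlap between genotypes, and the 2 nearest genes of each member. Members and lists were chosen with earlier results of these data known. Alternatives changed the filter, probeset rule, scaling, prior, array weights, block, threshold, an endothelial covariate and the arrays kept. The number of arrays limits precision.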

Additional observations from a re-analysis of the deposited data

How the results depend on the processing

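Counts between fractions depended on which arrays were kept. The count of the 10 genes in Wnt4-deleted cells (7, beside 16.4% of all genes) was 3 without title numbers 9 to 12 (7.05% of all genes), 3 without 13 to 16 (6.77%) and 3 without CD24 low arrays 9, 11, 13 and 15 (8.33%). In WT cells (5, beside 16.1%) it was 8 without 1 to 4 (3395 of 19938 genes), 3 without 13 to 16 (6.72%), 8 without CD24 low arrays 1 and 3 (15.2%) and 2 without CD24 low arrays 9, 11, 13 and 15 (8.14%). Of the further BMP genes, 12 passed in Wnt4-deleted cells (19) without 9 to 12, and in WT cells (20) 10 passed without 9 to 12 (6.89% of all genes), 10 without 13 to 16 and 13 without CD24 low arrays 9, 11, 13 and 15. With 1 array left out at a time the 10 genes gave 6 to 8 in Wnt4-deleted and 4 to 7 in WT cells. The share of all genes was then 10.8% to 18.2% in Wnt4-deleted and 11.4% to 17.7% in WT cells. The other alternatives kept both counts within 1.5 times, while the share of all genes moved. In WT cells it was 26.2% with array weights (7 of the 10 genes), 26.2% with the filter on low values (4) and 6.89% without 9 to 12 (4). The cause was not tested.

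Although 3 separate experiments are named in the series' design, the groups share no replicate number in their titles. Deviations from the group means correlated within the sets at -0.14 to 0.70 (mean 0.196, 0.204 and 0.178 over 6 pairs each); not every pair exceeded 0.1, so a pairing is not established. With the set as a replicate block 8 genes passed in Wnt4-deleted (18.8% of all genes) and 7 in WT cells (18.2%), and the block made calls of Bmp4 in Wnt4-deleted and in WT cells (-1.46 and -1.33, adjusted p = 0.0185 and 0.0285, limma) and of Id1 in WT cells (-1.13, adjusted p = 0.0435). No genotype or interaction count of the 10 genes left 0.

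Signs turned in the following fits, where no turned change passed. Without CD24 low arrays 9, 11, 13 and 15, Id3 was 0.82 in Wnt4-deleted and 0.26 in WT cells and Bmpr1a -0.12 in Wnt4-deleted cells, CD24 high minus CD24 low. For Wnt4-deleted minus WT in CD24 high cells, leaving out 9 to 12 gave Bmp4 -0.16 and Bmp7 -0.13, leaving out 1 to 4 gave Bmpr2 -0.10 and Id1 0.021, leaving out 13 to 16 gave Id1 0.090, array weights gave Bmpr2 -0.026, median centering gave Id1 0.022 and a second quantile normalization Id1 0.0098. In CD24 low cells the endothelial covariate gave Bmp4 -0.079, Id2 -0.048 and Id3 -0.15, leaving out 9 to 12 gave Bmpr1a 0.091, and leaving out 13 to 16 gave Id2 -0.010 and Id3 -0.067. For the difference of effects, array weights gave Bmp4 -0.028, leaving out 9 to 12 gave Bmpr2 -0.065, leaving out 1 to 4 gave Id3 0.14, and leaving out CD24 low arrays 1 and 3 gave Bmpr2 -0.042 and Id3 0.022.

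With 1 array left out at a time, changes that turned ranged as follows. Between fractions in WT, Bmpr1a lay between -0.11 and 0.00053. Between genotypes in CD24 high cells, Bmp4 lay between -0.12 and 0.33, Bmp7 between -0.052 and 0.23, Bmpr2 between -0.080 and 0.25 and Id1 between -0.17 and 0.095. In CD24 low cells, Bmp4 lay between -0.28 and 0.89, Bmpr1a between -0.20 and 0.088, Id2 between -0.13 and 0.38, Id3 between -0.31 and 0.66 and Smad6 between -0.10 and 0.024. For the difference of effects, Bmp4 lay between -0.35 and 0.81, Bmpr2 between -0.10 and 0.23 and Id3 between -0.56 and 0.41.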
